A study of Mus musculus with 23 samples.

Results

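Lin-ckit+Sca-1+ (LKS) cells of the mouse fetal liver (FL) were compared with undifferentiated embryonic stem cells (ESCs) on all probes of one expression array, with 3 arrays on each side, 6 of the 23 arrays in the series. The comparison sets a fetal blood stem and progenitor state against the pluripotent state. The FL cells came from embryos of embryonic day 15 from matings of 129X1/SvJ and 129S1/SvImJ mice. They were depleted of cells carrying CD5, B220, CD11b, Gr-1, 7-4 or Ter-119 and then sorted by flow cytometry on ckit and Sca-1. The ESCs were the R1 line, which the labels give the strain 129X1/SvJ x 129S1 like every other sample, taken at day 0 of differentiation after expansion on inactivated mouse embryonic fibroblast feeders, and no sort of them is described. The ESC group is therefore 1 cell line in culture, and the FL group a sorted primary population. The labels call the arrays biological replicates but give neither litters nor passages. The p-values measure only the spread between samples within groups, pooled over all 6 groups of the series, and that spread may be technical.

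In the embryo, definitive blood formation moves to the fetal liver, where stem cells expand while their progeny make erythroid, myeloid and lymphoid cells. Blood stem and progenitor identity rests on a group of transcription factors that includes Tal1, Lyl1, Lmo2, Gata2, Runx1 and Gfi1b. Pluripotent cells instead hold a self-sustaining circuit around Pou5f1 (Oct4), Nanog and Sox2, grow as epithelial colonies, and carry a metabolism and chromatin of their own. As a bulk measurement, a lower array signal can mean fewer cells of a type or less RNA per cell, and these cannot be told apart here.

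Each level below is the deposited log2 intensity of a probe after quantile normalization, on a scale that ran from 4.90 to 15.09 with a median of 6.40. A linear offset of about 60.2 intensity units is built into that scale, so differences of dim genes are understated. A probe was taken as above background on an array when its detection p-value was below 0.01, which held for 9785 to 10394 probes on the FL arrays and 10305 to 10735 on the ESC arrays. Where a gene was above background on no array of one group, only a lower bound of the fold is given ("at least"), set against the dimmest signal the arrays detected. Where only some arrays of a group were above background, the difference is that of the measured means. Beside those said below, this held in ESCs for Ly6c1, Vpreb1, Igtp and Cdkn2c (2 of 3 arrays) and for Bcl2 and Xist (1 of 3), and in FL for Lefty1, Tcf7l1 and Il6st (2 of 3). A gene was read by its brightest probe and was called when its adjusted p-value (limma, Benjamini-Hochberg over all 25697 probes) was below 0.05. The 3 FL arrays lay on slide 2 and the 3 ESC arrays on slide 1, so no slide held both groups. The other groups link the slides, and the counts of each list with the slide as a block are given where they moved by over 1.5 times.

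1 array of each group stood apart from the other two, and this touches several of the results. FL replicates 1 and 2 differed by over 2-fold on 58 probes, whereas replicate 3 differed from them on 719 and 370. The mean log2 level over 20 erythroid genes was 11.94 and 11.14 in FL replicates 1 and 2 but 9.18 in replicate 3. Conversely, the mean over 22 monocyte and macrophage genes was 8.08, 8.53 and 10.44 in the 3 FL replicates, and that over 8 MHC class II genes was 7.56, 7.72 and 10.45. FL replicate 3 thus read lower in red cell genes and higher in macrophage and antigen-presentation genes, and all 3 FL arrays stayed above all 3 ESC arrays on each of these lists. Among ESCs, replicates 1 and 3 differed by over 2-fold on 30 probes, and replicate 2 differed from them on 367 and 219. The mean over 23 fibroblast and stromal genes was 7.94, 9.62 and 8.41 in ESC replicates 1, 2 and 3. The summed linear intensity of these genes was 13400, 68600 and 31000 in the ESC replicates and 2500 to 3320 in the FL replicates. Mgp, a matrix protein and the gene farthest apart in that array, read 14.84 in ESC replicate 2 against 6.40 and 6.07 in the others (chosen after its values were seen). Whether feeder cells contributed was not tested.

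**Figure D1:**
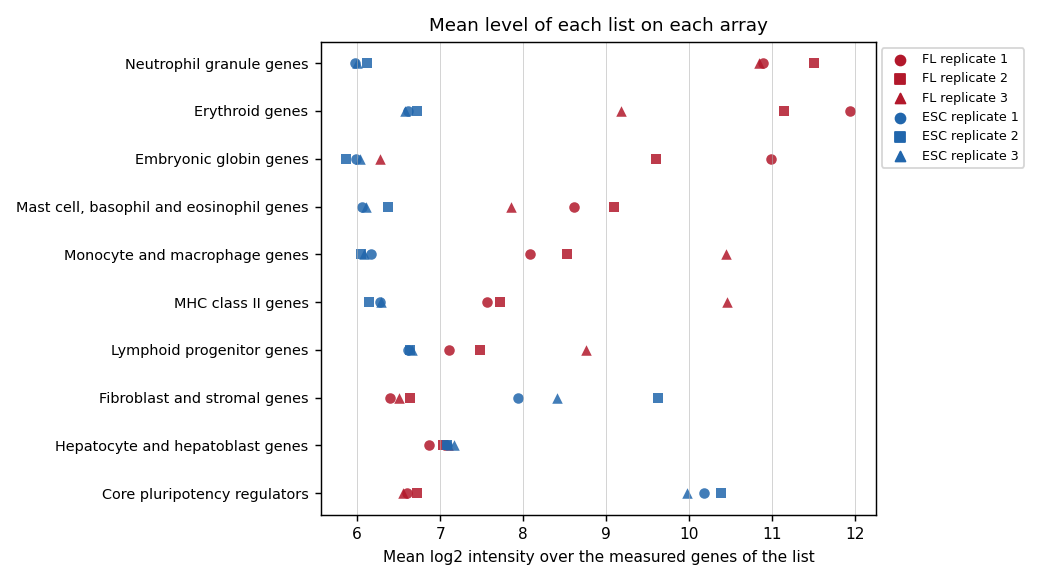
Mean log2 intensity (x axis) over the measured genes of 10 lists (y axis) on each of the 3 FL arrays (red) and 3 ESC arrays (blue), with the marker shape giving the replicate. FL replicate 3 (red triangle) lies at 9.18 for erythroid genes, below the other FL arrays, and at 10.45 for MHC class II genes, above them, while ESC replicate 2 (blue square) lies at 9.62 for fibroblast genes.

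FL LKS cells and ESCs differed in many genes, about as many in each direction. Of the 25697 probes, 3297 (12.8%) were called higher and 3317 (12.9%) lower in FL, and 932 (3.63%) were called with at least a 5-fold difference, of which 460 (1.79%) were higher and 472 (1.84%) lower. In genes, 2336 of 17912 (13.0%) were called higher and 2553 (14.3%) lower, 27.3% in all, and the median difference over all genes was 0.00. Of these, 255 of the higher and 243 of the lower were below background on all 6 arrays, though none of those called at least 5-fold. Some of the list counts below include such calls. Many of the large differences were of a gene read in one cell type only. Of 383 genes called at least 5-fold higher in FL, 232 (60.6%) were above background on all 3 FL arrays and no ESC array, and of 408 called at least 5-fold lower, 259 (63.5%) showed the reverse. With the slide as a block, 4107 probes were called, 857 of them at least 5-fold, and 1459 genes were called higher and 1658 lower.

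**Figure D2:**
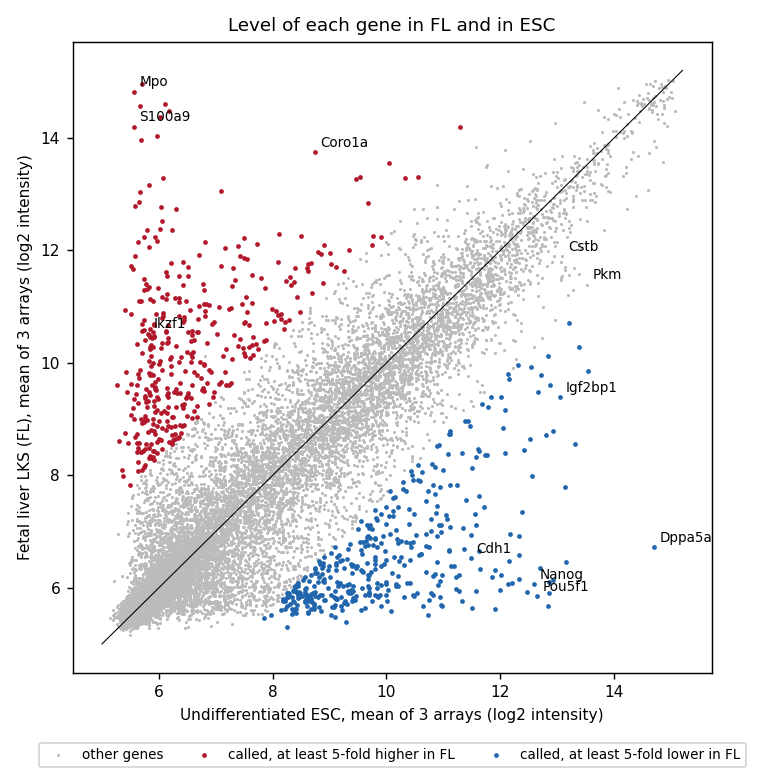
Mean log2 intensity of each of the 17912 genes in ESCs (x axis, 3 arrays) and FL (y axis, 3 arrays), with the line of equality. The 383 genes called at least 5-fold higher in FL (red) and the 408 called at least 5-fold lower (blue) lie mostly against the background edge of the other group.

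The 15 largest rises in FL were all genes of the myeloid and erythroid lineages or of the cystatin family. Mpo, the myeloperoxidase of granulocyte precursors, read 14.56, 14.95 and 14.94 in FL and 5.53, 5.50 and 5.65 in ESCs, at least 257-fold higher (adjusted p = 3e-06). The alpha globin gene Hba-a1 read 15.09, 15.09 and 14.71 in FL and 5.61 to 5.80 in ESCs, at least 285-fold higher (adjusted p = 2.3e-06). S100a9, a subunit of calprotectin, read 14.23, 14.18 and 14.19 in FL and 5.46 to 5.63 in ESCs, at least 168-fold higher (adjusted p = 2.6e-11). All 3 genes sat near the top of the array's range in FL and were below background in every ESC replicate. The others were Stfa1, S100a8, Eraf (the name the array gives to the stabilizer of free alpha globin), Lyz1, Cstdc4, Slc4a1, Ctse, Lyz2, Prg2, Prtn3, Ctsg and Hbb-b2. In each of the 15 the lowest FL array lay above the highest ESC array, as the rule that chose them required, and over all genes the groups did not overlap for 41.4%. S100a8 was the one of them above background on an ESC array, reading 6.96 in ESC replicate 2 against 14.51 to 14.75 in FL.

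The 15 largest falls among the genes reported were of pluripotency regulators, metabolic enzymes, a hormone precursor, and genes of the contractile and matrix kind. Dppa5a, a pluripotency-associated RNA-binding protein, read 6.36, 7.32 and 6.46 in FL and 14.60, 14.74 and 14.76 in ESCs, a log2 difference of -7.99 between the measured means (SE 0.55, adjusted p = 6.1e-08), with 1 of the 3 FL arrays above background. Pou5f1 read 5.78, 5.88 and 5.90 in FL and 12.97, 12.47 and 12.46 in ESCs, at least 52.1-fold lower in FL (adjusted p = 1.5e-05). Nanog read 5.89 to 6.34 in FL and 12.29, 13.16 and 12.35 in ESCs, at least 50.8-fold lower (adjusted p = 2e-05). Both regulators were below background on every FL array. Dppa4, Dnmt3l, Sall4 and Esrrb belong to the same circuit or its companions. Upp1 (uridine phosphorylase), Trh (thyrotropin-releasing hormone), Hspb1 (a small heat shock protein), Tdh (threonine dehydrogenase), Gldc (glycine decarboxylase) and Pla2g1b (a secreted phospholipase) are not transcription regulators. Acta2, smooth muscle actin, read 10.90, 13.61 and 14.03 in the ESC replicates, and Timp1, a protease inhibitor, 11.28, 12.94 and 11.78. All 15 were higher in every ESC array than in any FL array, as the rule that chose them required.

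**Figure D3:**
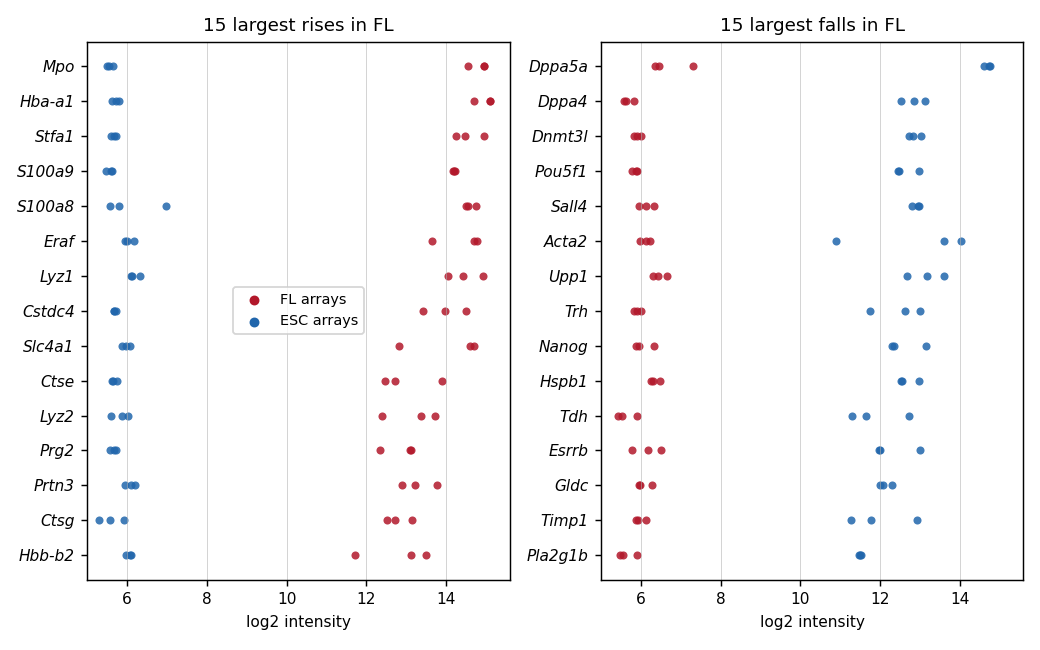
Log2 intensity (x axis) on each of 3 FL arrays (red) and 3 ESC arrays (blue) for the 15 largest rises (left) and 15 largest falls (right) among the called genes reported (y axis). The FL and ESC arrays do not overlap for any of the 30 genes, as the rule that chose them required.

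The sequence just upstream of these genes is shown for 3 that rose and 2 that fell, to show the motif letters whose shares are given after them. The 250 bases before the annotated start are RefSeq sequence of build GRCm38.p6. Capitals mark matches, on either strand, to GAGGAAGT (an ETS site of the PU.1 kind), AGATAA (erythroid and stem cell Gata factors), TTGCNNAA (C/EBP), TGTGGT (RUNX), ATGCAAAT (the octamer) or GGGGCGGGG (KLF and Sp).
Mpo (myeloperoxidase), plus strand, chr11:87793534-87793783: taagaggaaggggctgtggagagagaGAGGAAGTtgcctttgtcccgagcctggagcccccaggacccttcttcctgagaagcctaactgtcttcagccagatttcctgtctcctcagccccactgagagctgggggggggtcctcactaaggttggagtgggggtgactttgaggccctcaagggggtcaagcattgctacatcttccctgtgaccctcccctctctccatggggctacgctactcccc
Prtn3 (proteinase 3), plus strand, chr10:79879417-79879666: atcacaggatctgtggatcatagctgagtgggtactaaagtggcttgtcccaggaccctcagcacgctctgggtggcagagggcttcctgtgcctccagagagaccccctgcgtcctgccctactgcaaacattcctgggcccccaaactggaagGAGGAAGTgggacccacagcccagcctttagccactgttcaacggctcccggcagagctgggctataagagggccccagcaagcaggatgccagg
S100a9 (calprotectin subunit), minus strand, chr3:90695722-90695971: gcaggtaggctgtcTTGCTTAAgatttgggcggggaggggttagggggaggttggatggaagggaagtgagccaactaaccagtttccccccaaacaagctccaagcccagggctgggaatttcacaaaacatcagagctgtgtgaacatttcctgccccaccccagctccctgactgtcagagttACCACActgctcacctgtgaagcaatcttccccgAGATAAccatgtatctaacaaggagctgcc
Pou5f1 (Oct4), plus strand, chr17:35505782-35506031: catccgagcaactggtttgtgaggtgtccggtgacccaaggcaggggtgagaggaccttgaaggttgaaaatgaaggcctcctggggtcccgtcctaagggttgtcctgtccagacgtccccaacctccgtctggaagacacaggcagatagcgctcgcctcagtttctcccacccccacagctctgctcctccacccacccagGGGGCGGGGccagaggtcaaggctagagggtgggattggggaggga
Upp1 (uridine phosphorylase), plus strand, chr11:9117758-9118007: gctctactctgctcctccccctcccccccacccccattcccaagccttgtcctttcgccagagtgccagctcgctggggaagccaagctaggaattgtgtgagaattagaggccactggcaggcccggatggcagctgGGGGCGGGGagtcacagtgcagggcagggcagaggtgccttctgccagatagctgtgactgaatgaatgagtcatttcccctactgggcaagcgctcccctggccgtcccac
The windows of Mpo and Prtn3 each held 1 ETS match, that of S100a9 held 1 GATA, 1 C/EBP and 1 RUNX match, and those of Pou5f1 and Upp1 held 1 KLF and Sp match each. No other window found for the largest falls held a KLF and Sp match. Those of Dnmt3l, Acta2, Trh, Nanog, Hspb1, Esrrb, Gldc and Timp1 held no match, and that of Pla2g1b held 1 ETS match. Of the largest rises with a window, only Hba-a1 had no match. RefSeq windows were matched to 13709 genes of the array, among them 281 of the 383 genes at least 5-fold higher in FL and 290 of the 408 at least 5-fold lower. The ETS letters stood in 5.69% of the windows of genes higher in FL, 2.76% of those lower and 2.20% of all. RUNX letters stood in 20.3%, 7.59% and 11.8% of these windows, C/EBP letters in 14.2%, 7.24% and 8.91%, and GATA letters in 11.7%, 3.45% and 8.85%. KLF and Sp letters went the other way, with 13.2% of windows higher in FL, 21.4% of those lower and 15.3% of all. The median window held 5 CpG dinucleotides for genes higher in FL and 11 for genes lower, against 11 over all genes. Its GC content was 55.2% for genes higher in FL, 60.2% for genes lower and 56.4% over all genes, and the motif shares were not adjusted for it. The octamer stood in 2.85%, 2.07% and 1.69%. These are descriptions of letters in a window, with no test, and say nothing of whether a factor binds there.

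Transcription factors of blood stem cells were higher in FL almost as a whole. Of 26 measured, 23 were called higher and none lower, beside 13.0% and 14.3% of all genes, and the median log2 difference was 3.17 (2.74 with bounded genes at their bound). Lyl1, a basic helix-loop-helix partner of Tal1, read 10.66, 10.52 and 10.28 in FL and 5.81 to 5.86 in ESCs, at least 12.8-fold higher (adjusted p = 3.2e-06). Ikzf1 (Ikaros), a regulator of lymphoid and stem cell programs, read 10.20, 10.36 and 11.01 in FL and 5.70 to 5.90 in ESCs, at least 13.1-fold higher (adjusted p = 1.7e-06). These factors read alike in the 3 FL arrays. Factors of the red cell branch did not. Klf1, the erythroid Krüppel-like factor, read 13.40 and 12.77 in FL replicates 1 and 2 and 10.25 in replicate 3, and Tal1 read 11.58, 11.00 and 8.26. Both were called (adjusted p = 6.1e-05 and 0.0002), as were Nfe2 and Lmo2. The exceptions were Etv6 (log2 difference 0.34, SE 0.14, adjusted p = 0.096), Mecom and Hlf. Hlf, a factor of the most immature stem cells, was below background on all 6 arrays, and Mecom, of the same kind, on all FL arrays.

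The antigens by which such cells are sorted gave a mixed picture. Kit was not analysed here. Ly6a, which encodes Sca-1, read 8.01, 8.28 and 9.32 in FL and 8.95 to 11.89 in ESCs, and the groups overlapped (log2 difference -1.41, SE 0.59, adjusted p = 0.096). Sca-1 transcript was thus above background in both groups and was not called, with its highest value in ESC replicate 2. Of 20 surface markers of stem and progenitor cells, 9 were called higher and 2 lower. Cd27 read 11.31, 12.00 and 10.66 in FL and 5.89 to 6.09 in ESCs, at least 22.9-fold higher (adjusted p = 1.7e-09). Cd93, Fcgr3 and Il7r were also higher, with Il7r at 8.16 and 8.87 in FL replicates 1 and 2 and 11.11 in replicate 3. Thy1 was lower in FL, reading 6.56, 6.55 and 7.20 against 9.44, 10.74 and 8.84 in ESCs, with 1 FL array above background (log2 difference of measured means -2.90, SE 0.39, adjusted p = 4.9e-05). Cd9 was lower too (log2 difference -2.00, SE 0.41, adjusted p = 0.0017). Flt3, the receptor of multipotent progenitors, read 6.18 to 6.26 in FL and Cd48 5.66 to 5.89, both below background on all 6 arrays (chosen after their values were seen).

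Genes of the antigens removed before the sort were partly read in FL. Ly6c1, of the Ly6 family that Gr-1 antibody binds, read 10.57, 11.43 and 12.41 in FL against 7.21, 8.01 and 6.80 in ESCs, a 17.5-fold difference (log2 difference 4.13, SE 0.39, adjusted p = 1.6e-06). Its family has near-identical members that a probe may share. Ptprc, whose B220 form was depleted, was higher at 6.97, 6.96 and 7.98 (at least 1.41-fold, adjusted p = 0.0019, 0.078 with the slide as a block). Itgam, which encodes CD11b, was below background on all 6 arrays. Erythroid and granulocyte transcripts such as Hba-a1 and S100a9 stood at the top of the array's range in a population depleted of mature cells, and what part cells left over from depletion had in this was not tested.

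**Figure D4:**
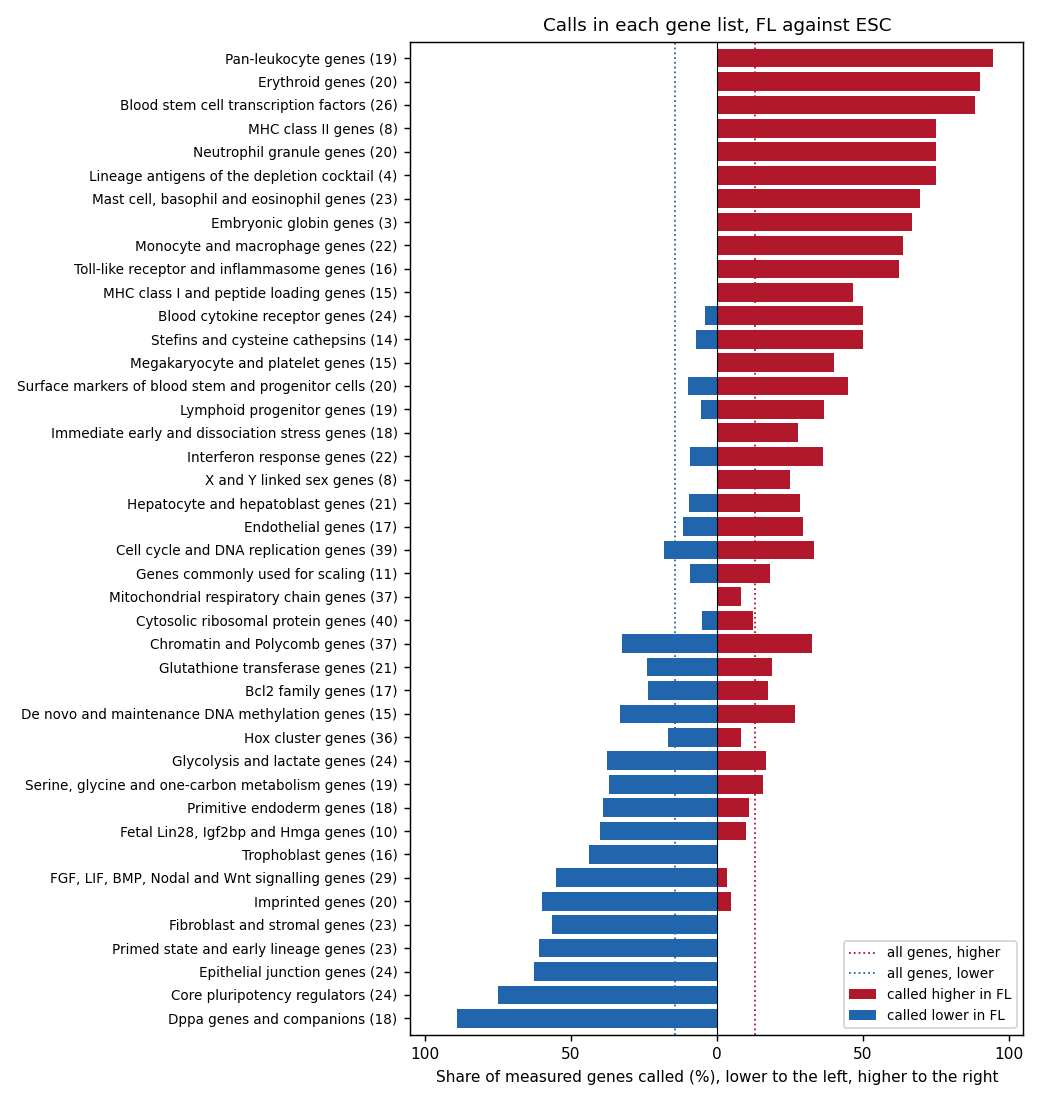
Share of the measured genes of each list (y axis, number measured in brackets) that was called higher (red, right) or lower (blue, left) in FL than in ESCs, in percent. Dotted lines mark 13.0% higher and 14.3% lower over all genes, and 18 of 19 pan-leukocyte genes and 16 of 18 Dppa genes stand at the opposite ends.

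Neutrophil granule genes had the largest median rise of the lists described. Of 20, 15 were called higher, all 15 at least 5-fold, with a median log2 difference of 5.87 (5.06 with bounds). They covered proteases of the primary granules, such as Prtn3 and Ctsg, and proteins of later granules. Ctsg (cathepsin G) read 12.52, 12.72 and 13.14 in FL and 5.28 to 5.93 in ESCs, at least 63.1-fold higher (adjusted p = 5.5e-12). Lcn2, a siderophore-binding protein of the later kind, read 12.06, 13.39 and 11.00 in FL and 5.57 to 5.74 in ESCs, at least 40.4-fold higher (adjusted p = 0.00015). Of the 5 members not called, Cd177 read 8.15, 9.25 and 6.99 in FL (adjusted p = 0.1), Itgb2l 7.02, 7.66 and 6.81 (adjusted p = 0.12), and Mmp8 was below background on all 6 arrays. Of 19 pan-leukocyte genes, 18 were called higher, with a median of 3.51 (3.21 with bounds). Coro1a, an actin regulator of blood cells, read 13.23, 13.78 and 14.23 in FL against 9.16, 8.12 and 8.98 in ESCs, a 31.9-fold difference (log2 difference 4.99, SE 0.73, adjusted p = 0.0001). Rac2, Was, Cd52 and Cd53 were below background in ESCs and at least 15.5-fold higher in FL. Only Cd44 was not called, with ESC replicate 2 at 9.89, above all FL arrays.

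The stefins, inhibitors of cysteine proteases that lie in a cluster of near-identical genes, were among the sharpest differences. Stfa1 read 14.26, 14.94 and 14.47 in FL and 5.59 to 5.73 in ESCs, at least 215-fold higher (adjusted p = 1.2e-06). Cstdc4 was at least 142-fold and Stfa2 at least 47.4-fold higher (adjusted p = 2.6e-06 and 4.6e-05), and these probes may share transcripts of the cluster. Their relative Cstb went the other way, reading 11.17, 11.89 and 12.64 in FL and 12.88, 13.29 and 13.09 in ESCs (log2 difference -1.18, SE 0.26, adjusted p = 0.0029). Of 14 stefins, cystatins and cathepsins, 7 were called higher and 1 lower, and 4 and 1 with the slide as a block. Ctsb, cathepsin B, was high in both groups and called higher in FL (adjusted p = 0.018), although its arrays overlapped. Its call was lost without FL replicate 1, FL replicate 3, ESC replicate 1 or ESC replicate 3 (adjusted p from 0.059 to 0.1) and with the slide as a block (0.14).

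Erythroid genes were higher in FL in nearly full number, and their level set the FL arrays apart from each other. Of 20, 18 were called higher and none lower (median 4.29, or 3.53 with bounds), and 19 without FL replicate 3. Slc4a1, the band 3 anion exchanger of red cells, read 14.59, 14.70 and 12.81 in FL and 5.86 to 6.07 in ESCs, at least 149-fold higher (adjusted p = 1.1e-05). Alas2, the first enzyme of erythroid heme synthesis, read 14.18, 12.67 and 9.86 in FL and 5.63 to 5.86 in ESCs, at least 43.0-fold higher (adjusted p = 0.00097). Car2, a carbonic anhydrase, was read in ESCs as well, at 10.72, 9.85 and 10.85, and was not called (adjusted p = 0.066). The embryonic globins, made by the first wave of red cells, were read in FL replicates 1 and 2 alone. Hbb-y read 12.53, 10.61 and 6.20 in FL and 5.69 to 6.05 in ESCs (at least 7.84-fold, adjusted p = 0.038), and without FL replicate 3 its adjusted p was 0.0012. Hbb-bh1 read 10.72, 10.32 and 6.34 in FL (at least 4.98-fold, adjusted p = 0.02). Neither of these 2 calls held without FL replicate 1, FL replicate 2, ESC replicate 2 or ESC replicate 3 or with the slide as a block (adjusted p from 0.08 to 0.19 for Hbb-y and from 0.052 to 0.24 for Hbb-bh1), and that of Hbb-y was also lost without ESC replicate 1 (0.092). Closely related globin genes can share a probe.

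Mast cell, basophil and eosinophil genes also rose, with 16 of 23 called higher (median 2.68, or 1.77 with bounds). Prg2, the eosinophil major basic protein, read 13.09, 13.13 and 12.35 in FL and 5.56 to 5.73 in ESCs, at least 66.1-fold higher (adjusted p = 4.7e-10). Cpa3, mast cell carboxypeptidase, read 11.24, 12.49 and 8.89 (at least 16.7-fold, adjusted p = 6.3e-06), and Hdc, which makes histamine, 11.75, 12.57 and 10.80 (at least 29.7-fold, adjusted p = 3.3e-07). The tryptase Tpsab1 varied most, at 9.46, 11.57 and 7.16. FL replicate 3 was the lowest of them for each of these genes. Fcer1a, a chain of the high-affinity IgE receptor, was near background in FL (6.61, 7.36 and 6.75) and was not called. Megakaryocyte genes were fewer: 6 of 15 were called higher, among them Nfe2 and Pf4 (8.39, 9.23 and 11.24 in FL), and 2 with the slide as a block. Without ESC replicate 2, 4 of the 15 were called.

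Monocyte and macrophage genes were higher, most of all on FL replicate 3. Of 22, 14 were called higher (median 2.31, or 1.93 with bounds), and 7 with the slide as a block. Lyz2, the macrophage lysozyme, read 12.38, 13.37 and 13.72 in FL and 5.60 to 6.01 in ESCs, at least 81.3-fold higher (adjusted p = 1.8e-05). The chemokine Ccl4 read 11.26, 11.74 and 12.00, at least 29.0-fold higher (adjusted p = 0.0003). C1qb, a complement subunit made by tissue macrophages, read 7.65 and 8.54 in FL replicates 1 and 2 and 12.62 in replicate 3 (at least 6.92-fold, adjusted p = 0.0041). Its call held without that array (adjusted p = 0.0098) and was lost with the slide as a block (0.076). Vcam1 read 8.16, 8.39 and 12.21 in FL and 6.97 to 8.22 in ESCs, and was not called. Lymphoid genes split the arrays in the same way. Of 19, 7 were called higher and 1 lower (median 0.27, or 0.00 with bounds), and the 7 included Vpreb1 and Vpreb3, the surrogate light chain genes of B cell precursors. Vpreb1 read 8.97, 10.46 and 13.36 in FL and 6.70 to 6.88 in ESCs, a 17.3-fold difference (log2 difference 4.11, SE 0.90, adjusted p = 0.0029). Tcf7, known in T cell precursors, was lower in FL, at 5.61 to 6.65 against 7.81 to 8.18 in ESCs (at least 2.07-fold, adjusted p = 0.0022).

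Antigen presentation and innate sensing genes were also called higher in part. Of 15 MHC class I and peptide loading genes, 7 were called higher and none lower, none by 5-fold. H2-T23, a nonclassical class I gene, read 9.84, 9.46 and 10.25 in FL against 8.04, 7.24 and 7.46 in ESCs (log2 difference 2.27, SE 0.29, adjusted p = 2.5e-05). B2m, the shared light chain, was not called, with ESC replicate 2 at 13.04 and the others at 11.24 and 11.25. Of 8 MHC class II genes, 6 were called higher, and 3 with the slide as a block. H2-Ab1 read 8.31, 8.69 and 12.61 in FL and 6.02 to 6.11 in ESCs (at least 8.32-fold, adjusted p = 0.0011). Of 16 Toll-like receptor and inflammasome genes, 10 were called higher, 7 without FL replicate 3 and 2 with the slide as a block. Casp1, the inflammasome protease, read 9.83, 10.31 and 11.53 in FL and 5.58 to 5.87 in ESCs, at least 13.4-fold higher (adjusted p = 6.5e-07). Interferon response genes moved both ways, with 8 of 22 higher and 2 lower, and 5 higher both without FL replicate 3 and with the slide as a block, where 1 was lower. Igtp, an interferon-induced GTPase, was 6.84-fold higher in FL (SE of log2 0.44, adjusted p = 0.0002), and Gbp2, another, was lower at 7.45, 7.44 and 8.35 against 9.79, 10.30 and 10.80 (log2 difference -2.55, SE 0.34, adjusted p = 4.3e-05). Another probe of Gbp2 had the opposite sign.

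Blood cytokine receptors were called higher for 12 of 24 genes and lower for 1. They spanned receptors of several branches: Cxcr4, the receptor of a homing chemokine (at least 10.4-fold, adjusted p = 4.6e-06), Csf1r of macrophages (8.33, 8.88 and 11.31 in FL), Epor of red cells (10.68, 10.21 and 7.48) and Csf3r of neutrophils (8.71, 9.24 and 9.14). Csf1r was highest and Epor lowest on FL replicate 3. The lower one was Il6st (gp130), the receptor chain through which LIF maintains mouse ESCs. It read 6.62, 6.92 and 7.43 in FL and 7.71, 8.49 and 8.23 in ESCs (log2 difference -1.16, SE 0.24, adjusted p = 0.0019, 0.05 with the slide as a block).

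The ESC side was led by the regulators of pluripotency. Of 24 core regulators, 18 were called lower in FL, all 18 at least 5-fold, and none higher (median -3.33, or -3.02 with bounds). All 18 were also called with the slide as a block. Sall4, a zinc finger factor, read 5.96 to 6.33 in FL and 12.81, 12.96 and 12.97 in ESCs, at least 63.2-fold lower in FL (adjusted p = 2.5e-08). Zfp42 (Rex1) read 6.63 to 6.72 in FL and 11.12, 12.16 and 10.80 in ESCs, at least 21.5-fold lower (adjusted p = 0.00017). Sox2 was the dimmest of the fixed markers in ESCs, at 9.17, 8.69 and 8.17 against 5.72 to 6.04 in FL (at least 3.36-fold, adjusted p = 7.4e-05). Klf4 was read in both, at 8.34 to 9.78 in FL and 10.38, 10.60 and 10.13 in ESCs, and was not called (adjusted p = 0.088). Mybl2 and Rif1 were not called either. Of 18 Dppa genes and their germline-type companions, 16 were called lower (median -2.44, or -1.63 with bounds), and 10 with the slide as a block. Rhox5, Ooep and L1td1 were each below background on all FL arrays and at least 30.2-fold lower.

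Genes of the primed state and of early lineages were read in part in ESCs, with 9, 14 and 10 of 23 above background on the 3 ESC arrays. Of the 23, 14 were called lower in FL and none higher. Pou3f1 (Oct6) read 9.99 ± 0.86 in ESCs and 6.07 ± 0.10 in FL (SD, n = 3, at least 8.31-fold lower in FL, adjusted p = 1.3e-07), and Otx2 9.57, 9.43 and 8.85 (at least 5.10-fold, adjusted p = 0.0017). Lefty1, an inhibitor of Nodal, read 12.36, 9.78 and 12.05 in ESCs and 8.20, 7.68 and 6.80 in FL (log2 difference -3.84, SE 0.70, adjusted p = 0.00068). ESC replicate 2 was the lowest ESC array for Pou3f1 and Lefty1 and the highest for T (Brachyury), at 9.66 against 7.40 and 8.19. Of 16 trophoblast genes, 7 were lower, among them Cdx2 (at least 3.21-fold, adjusted p = 1.3e-07) and the keratins Krt8, Krt18, Krt19 and Krt7. Of 18 primitive endoderm genes, 7 were lower, 4 of them at least 5-fold (Sparc, Lamc1, Col4a1 and Lama1), and 2 higher. With the slide as a block 3 were lower, and the calls of Col4a1 and Lama1 were lost (adjusted p = 0.18 and 0.34). Col4a1 was not called without FL replicate 3 or ESC replicate 3 (adjusted p = 0.055 and 0.061), nor Lama1 without FL replicate 1 or ESC replicate 3 (0.07 and 0.088). Hnf4a was one of the higher ones, at 8.24, 8.19 and 7.25 in FL (at least 2.11-fold, adjusted p = 0.0019).

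Epithelial junction genes followed the pluripotent side. Of 24, 15 were called lower in FL and none higher (median -1.37, or -0.65 with bounds). Cdh1 (E-cadherin) read 6.34, 6.67 and 6.57 in FL and 11.43, 11.24 and 11.79 in ESCs, at least 23.5-fold lower (adjusted p = 3.4e-06). The tight junction genes Cldn6 and Cldn4 were at least 20.2-fold and 12.7-fold lower, and Esrp1, an epithelial splicing factor, at least 16.0-fold (adjusted p = 1.3e-05, 2.4e-05 and 4.6e-07). FL arrays were below background for all 4. Signalling genes of the FGF, LIF, BMP, Nodal and Wnt pathways were lower for 16 of 29 and higher for 1 (0 with the slide as a block). Tdgf1 (Cripto), the Nodal co-receptor, read 11.52, 10.76 and 11.40 in ESCs (at least 19.6-fold lower in FL, adjusted p = 2.6e-05), and Tcf7l1, a Wnt pathway repressor, 11.04, 11.22 and 10.96 against 6.89, 7.03 and 7.73 in FL (log2 difference -3.85, SE 0.22, adjusted p = 6.5e-09). The BMP targets Id1, Id2 and Id3 were read in both groups, overlapped and were not called.

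Fibroblast and stromal genes were lower in FL for 13 of 23, with none higher (median -1.69, or -1.09 with bounds), and for 11 without ESC replicate 2. Bgn (biglycan) read 6.51 to 6.64 in FL and 11.21, 14.49 and 11.30 in ESCs, at least 42.2-fold lower (adjusted p = 1e-05). Ccn2, a matricellular protein, read 12.26, 12.66 and 12.21 in ESCs and 6.58, 8.81 and 6.65 in FL, above background on 1 of the 3 (log2 difference of measured means -5.03, SE 0.54, adjusted p = 5.4e-06). Between 14 and 21 of the 23 genes were above background on an ESC array and 2 to 4 on an FL array. Of the other cell types a fetal liver sort could carry, hepatocyte genes were called higher for 6 of 21 and lower for 2. Without FL replicate 3, 4 were lower. The 2 lower were the keratins Krt8 and Krt18, and the higher included Trf (adjusted p = 0.00011), Hnf4a and Apoa2. Mean levels over the 21 were 6.86 to 7.09 in FL and 7.08 to 7.17 in ESCs. Between 7 and 11 of the 21 were above background on an FL array, against 5 or 6 on an ESC array. Alb, the defining hepatocyte product, was below background on all 6 arrays. Afp was below background on all 6 as well, although it was called higher in FL (adjusted p = 0.0033). Endothelial genes were higher for 5 of 17 and lower for 2, with Emcn at 8.73, 8.82 and 7.16 in FL (at least 2.68-fold, adjusted p = 0.01, 0.14 with the slide as a block), for 3 without ESC replicate 2 and for 2 with the slide as a block, where 1 was lower.

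Genes of fetal growth were in part below background in FL and in part at a lower level there than in ESCs. Lin28a, the RNA-binding protein of pluripotent and early fetal cells, read 6.06 to 6.43 in FL and 10.90, 10.72 and 11.33 in ESCs, at least 16.6-fold lower (adjusted p = 3.2e-06). Igf2bp1 stayed well above background in FL, at 9.35, 10.18 and 8.64, but below the 13.00 to 13.12 of ESCs (log2 difference -3.67, SE 0.37, adjusted p = 3.2e-06). Igf2bp2 was not called (log2 difference -0.52, SE 0.20, adjusted p = 0.07). Imprinted genes were lower for 12 of 20 and higher for 1 (0 with the slide as a block). Phlda2 and Mest, growth regulators of the placenta and embryo, were below background in FL and read 11.99, 10.33 and 11.51 and 11.11, 10.57 and 11.85 in ESCs (adjusted p = 2.7e-08 and 1.1e-06). Igf2 was read in both, at 10.49, 10.90 and 8.39 in FL and 12.80, 11.36 and 13.47 in ESCs (log2 difference -2.61, SE 0.54, adjusted p = 0.002). H19, its neighbour in the same imprinted domain, read 9.55, 9.95 and 9.75 in FL and 9.85, 7.81 and 9.24 in ESCs, and was not called.

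Chromatin regulators changed in both directions. Of 37, 12 were called higher and 12 lower. Cbx7, a Polycomb chromobox protein, read 6.35 to 6.62 in FL and 9.93, 9.71 and 9.74 in ESCs, at least 7.28-fold lower (adjusted p = 4.6e-05). Phc1, another Polycomb subunit, was lower by 9.05-fold, at 9.22, 9.38 and 9.89 against 12.96, 12.43 and 12.63 (SE of log2 0.37, adjusted p = 1.2e-05). Macroh2a1, a histone variant, was 6.79-fold higher, at 12.69, 13.34 and 13.91 against 10.43 to 10.75 (SE of log2 0.24, adjusted p = 6e-07). Without FL replicate 3, 7 were higher and 11 lower, and with the slide as a block 9 and 7. Among 15 DNA methylation genes, Dnmt3l, the cofactor of de novo methylation, was at least 60.6-fold lower (adjusted p = 7.1e-07). Dnmt3b fell by less, from 14.21, 13.32 and 13.92 in ESCs to 12.56, 12.91 and 11.60 (log2 difference -1.46, SE 0.35, adjusted p = 0.0051, 0.087 with the slide as a block). Mbd1, a methyl-CpG binding protein, was 3.80-fold higher (SE of log2 0.24, adjusted p = 2.3e-05). Of 36 Hox genes, 3 were called higher and 6 lower, none by 5-fold. The largest rises were of Hoxa7 (9.16, 9.51 and 8.81 against 7.93 to 8.02, log2 difference 1.18, SE 0.17, adjusted p = 8e-05) and Hoxa9 (7.51, 7.84 and 7.00, at least 1.56-fold, adjusted p = 0.00084).

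Metabolic genes changed in both directions. Tdh and Gldc, which break down threonine and glycine, were at least 31.2-fold and 36.7-fold lower in FL (adjusted p = 2.3e-05 and 6e-07). The amino acid transporter Slc7a3 was at least 37.2-fold lower (adjusted p = 1.6e-07), whereas mitochondrial Shmt2 was higher, at 10.20, 9.77 and 9.10 against 8.96, 8.47 and 8.60 (log2 difference 1.01, SE 0.23, adjusted p = 0.0043). Glycolysis genes were lower for 9 of 24 and higher for 4. Slc2a3, a glucose transporter, read 10.50, 10.56 and 9.78 in FL and 13.46, 12.92 and 13.78 in ESCs (log2 difference -3.11, SE 0.45, adjusted p = 0.0001). The pyruvate kinases went opposite ways: Pkm was 4.40-fold lower in FL (SE of log2 0.32, adjusted p = 0.00013), and Pklr, the red cell and liver form, was read only in FL replicates 1 and 2 (8.60, 8.15 and 6.43, at least 1.89-fold, adjusted p = 0.0021). Glutathione transferases were likewise split, with Gsta4 and Gstm2 lower and Mgst2, Mgst3 and Gstm5 higher.

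Ribosomal and respiratory chain genes were called in small numbers, and cell cycle genes in larger ones. Of 40 cytosolic ribosomal protein genes, 5 were called higher and 2 lower, none by 5-fold (1 higher and 0 lower with the slide as a block, and 2 higher without ESC replicate 2), with mean levels of 13.15 to 13.23 in FL and 13.20 to 13.31 in ESCs. Of 37 respiratory chain genes, 3 were called higher and none lower (7 higher with the slide as a block). Both shares of calls lay below those of all genes, except that with the slide as a block the share of respiratory chain genes called higher lay above that of all genes (1459 of 17912). Cell cycle genes were higher for 13 of 39 and lower for 7, and most of the largest differences were of regulators. E2f2, an E2F factor known in red cell maturation, read 13.03, 11.70 and 11.59 in FL and 7.57 to 7.89 in ESCs, a 20.9-fold difference (SE of log2 0.42, adjusted p = 1.6e-06). The inhibitors split, with Cdkn2c 5.24-fold higher (SE of log2 0.28, adjusted p = 1.2e-05) and Cdkn2a and Cdkn2b at least 4.32-fold and 4.51-fold lower (adjusted p = 9.9e-05 and 0.0008). Cdkn2a read 7.41, 10.50 and 9.21 and Cdkn2b 7.42, 11.34 and 8.56 in the ESC replicates, with replicate 2 the highest for both. The replication genes Mcm2 and Pcna were not called (log2 differences -0.05, SE 0.25, and -0.08, SE 0.37, chosen after their values were seen). Of 18 immediate early genes, 5 were called higher, led by Zfp36 and Fos (13.17 ± 0.50 in FL and 10.88 ± 0.32 in ESCs, SD, n = 3, adjusted p = 0.00039). Without FL replicate 3, 2 of the 18 were called higher, and with the slide as a block 2 were higher and 2 lower. Of 17 Bcl2 family genes, 3 were called higher and 4 lower (1 and 3 without FL replicate 3, and 0 and 5 with the slide as a block). The pro-apoptotic Bax and Bok were lower. Bcl2, which protects from apoptosis, was higher by 2.21-fold (SE of log2 0.26, adjusted p = 0.0037, 0.066 with the slide as a block). The pro-apoptotic Bad went the other way from Bax and Bok and was higher (log2 difference 0.52, SE 0.18, adjusted p = 0.041, 0.19 with the slide as a block).

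Among genes used for scaling, Gapdh was lower in FL (13.33, 13.53 and 13.58 against 14.14 to 14.31, log2 difference -0.72, SE 0.11, adjusted p = 0.00017) and Gusb higher (log2 difference 1.51, SE 0.33, adjusted p = 0.0028). Hprt and Tubb5 were not called. Of the sex-linked genes, Xist, the X inactivation RNA, read 8.56, 8.73 and 8.70 in FL and 6.05, 7.01 and 5.96 in ESCs (log2 difference 2.33, SE 0.24, adjusted p = 3.9e-06). The Y-linked Ddx3y was read in both, at 10.26 to 10.71 in FL and 11.20 to 11.45 in ESCs, and was not called (adjusted p = 0.058). The FL arrays thus carried both Xist and Ddx3y transcripts (Ddx3y was chosen after its values were seen). Kdm5d, also Y-linked, was called higher in FL (adjusted p = 0.0058), and the Y-linked Eif2s3y and Uty were not called.

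Where FL differed from ESCs in another way than adult LKS cells did was asked against bone marrow (BM), sorted in the same way from mice aged 10 weeks, with 3 arrays on slides 1 and 2. BM and FL share the ESC arrays, so the test is of FL against BM directly. Its differences are of the measured means and were not bounded. For genes below background in either group, their size therefore depends on the background. The test of FL against BM called 259 of 17912 genes (1.45%), with 79 higher (0.441%) and 180 lower (1.00%) in FL. In probes the count was 315 (1.23%), and it moved with single arrays. It was 204 without FL replicate 1, 192 without FL replicate 2, 166 without BM replicate 2, 150 without BM replicate 3 and 581 without BM replicate 1, and 481 with the slide as a block. Of the 4889 genes called between FL and ESCs, 155 (3.17%) were also called between FL and BM. The stefins were the largest. Stfa1 read 6.36, 11.16 and 9.62 in BM, all below the 14.26 to 14.94 of FL (log2 difference 5.51, SE 0.81, adjusted p = 0.0017), and Cstdc4 and Stfa2 followed the same order, lowest on BM replicate 1.

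The fetal genes Igf2bp1 and Igf2 held an intermediate level in FL. Both were picked for being higher in FL than in BM, and both were lower in FL than in ESCs. Their position thus follows from that choice. Lin28a, of the same fetal list, was below background in FL. Igf2bp1 read 5.39, 5.44 and 5.62 in BM, below background, and was higher in FL than in BM (log2 difference 3.90, SE 0.37, adjusted p = 2e-05). Igf2 read 6.63, 6.44 and 6.43 in BM, also below background, against 8.39 to 10.90 in FL (log2 difference 3.43, SE 0.54, adjusted p = 0.0033). Both thus ran from ESCs through FL to BM without overlap between the groups. Tpsab1 was below background in BM and ESCs and above it on all 3 FL arrays. Other granulocyte genes were lower in FL than in BM while above ESCs. Prss34, a basophil protease, read 8.98, 9.59 and 9.11 in FL, 12.90, 12.20 and 12.24 in BM and 5.90 to 5.92 in ESCs (FL minus BM -3.22, SE 0.20, adjusted p = 2.3e-07). Hk3, the hexokinase of myeloid cells, read 7.36, 7.54 and 9.23 in FL and 10.50, 11.96 and 11.46 in BM (log2 difference -3.27, SE 0.42, adjusted p = 0.00046). Myl10, a myosin light chain, and Mcpt8, a basophil protease, kept the same order of means, although ESC replicate 2 read 8.43 for Mcpt8, within the FL range of 7.91 to 8.47. Klf2 and Cpne2 were lower in FL than in either BM or ESCs. Klf2, a Krüppel-like factor of quiescent blood cells and of naive ESCs, read 8.82, 9.21 and 9.75 in FL, 10.44, 13.36 and 12.55 in BM and 12.15, 11.77 and 11.10 in ESCs.

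**Figure D5:**
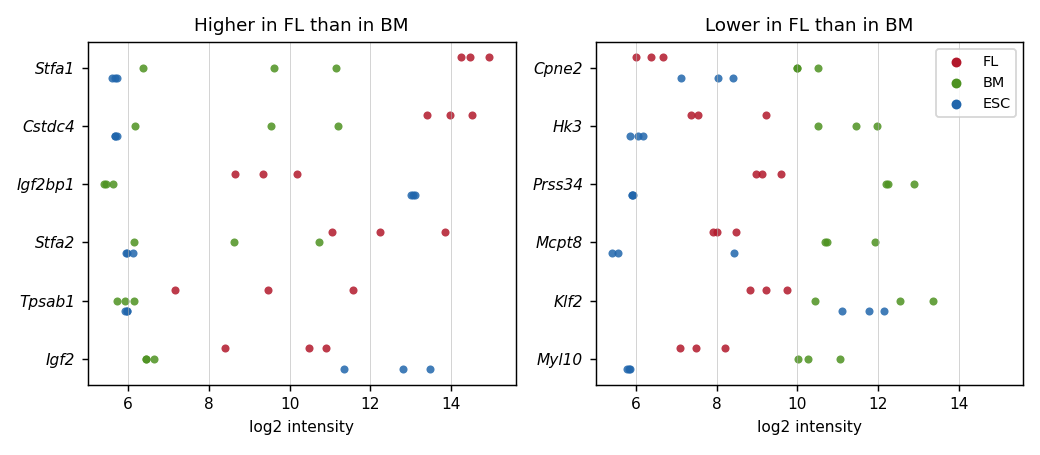
Log2 intensity (x axis) on each of 3 FL (red), 3 BM (green) and 3 ESC (blue) arrays for the 6 genes with the largest differences in each direction between FL and BM (y axis) that were also called between FL and ESCs. Igf2bp1 and Igf2 in FL lie between the other groups, and Cpne2 and Klf2 lie below both.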

How the data were processed

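Total RNA of 23 samples was amplified, labelled and hybridized to Illumina MouseRef-8 v2 bead arrays. The authors summarized the beads of each array into background-subtracted intensities, with a detection p-value for each probe, in BeadStudio (version 3). The deposited log2 values were quantile-normalized by the authors from these intensities. The number of arrays limits the precision.

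The comparison of FL with ESCs was fitted to the deposited log2 values with limma 3.58.1 (lmFit, eBayes with an intensity trend) in R 4.3.3, over all 6 groups and 17 samples. The 8 Synthecon arrays held near repeats and entered as 2 set means. P-values are two-sided and Benjamini-Hochberg adjusted over all 25697 probes, at a threshold of 0.05, and the 5-fold threshold is that of the study's methods. Tables and plots were made in Python 3.11.15 (pandas 2.3.3, numpy 2.4.6, matplotlib 3.10.9), and the scripts were tested on simulated data. The fit used all probes, with no filter on dim ones.

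Probes were named through RefSeq accessions (24202 probes, 94.2%) or a synonym that a single gene holds (301), and otherwise by the name in the file, which leaves 17912 genes, each read by its probe with the highest mean over the 23 arrays. A bound fold sets the mean of the brighter group against the mean, per array, of the dimmest signal detected there or the probe's own signal, whichever is higher. Promoters are the RefSeq windows of the first start listed for a gene. The members, gene lists and motifs were chosen with earlier results of these data known. The genes named are the 15 largest called rises and falls without overlap, up to 6 called members of each list by size and up to 3 that were not called or went against it, the sorted and depleted antigens, the pluripotency markers, and the 6 largest differences in each direction against BM. Others are marked as chosen after their values were seen. Some genes that these rules name are not reported here, and the next in size takes their place among the largest.

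Alternatives were the 6 arrays alone, all 23 arrays, slide or replicate number as a block, no trend, median scaling, normexp (run on the background-subtracted intensities), a filter on dim probes, the methods' t-test, and each replicate left out. A table of the authors' fold changes and p-values was not used, nor were repeats of the same intensities, detection p-values and log2 values.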

Additional observations from a re-analysis of the deposited data

Results flagged for a closer look

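For 12 genes called between FL and ESCs, the difference from ESCs in FL was unlike that in BM, by a limma test of FL against BM on 3 arrays each (adjusted over 25697 probes). Both differences use the same ESC arrays. These are the 6 largest in each direction among such genes, and 155 of the 4889 genes called between FL and ESCs were called against BM.

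Higher in FL than in BM were Stfa1 (log2 difference 5.51, adjusted p = 0.0017), Cstdc4 (5.01, 0.0041), Igf2bp1 (3.90, 2e-05), Stfa2 (3.89, 0.033), Tpsab1 (3.47, 0.014) and Igf2 (3.43, 0.0033). Lower in FL were Cpne2 (log2 difference -3.81, adjusted p = 2.4e-06), Hk3 (-3.27, 0.00046), Prss34 (-3.22, 2.3e-07), Mcpt8 (-2.98, 0.013), Klf2 (-2.85, 0.025) and Myl10 (-2.84, 9e-06). Igf2bp1, Tpsab1 and Igf2 were below background in BM, and their differences are of the measured means, without bounds. Each of the 12 was also called with all 23 arrays, with the slide as a block and without FL replicate 3.

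The calls of 4 of them depended on single arrays. Stfa2 was not called without FL replicate 1 (adjusted p = 0.097), FL replicate 2 (0.18), BM replicate 1 (0.064) or BM replicate 3 (0.12). Tpsab1 was not called without FL replicate 1 (adjusted p = 0.054) or BM replicate 3 (0.071), nor Mcpt8 without FL replicate 1 (0.055). Klf2 was not called without FL replicate 1 (adjusted p = 0.11), FL replicate 2 (0.099), BM replicate 2 (0.15) or BM replicate 3 (0.14).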

How the results depend on the processing

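The count of probes called between FL and ESCs, 6614 in limma, was 4107 with the slide as a block, and 3385 and 898 by the methods' t-test with equal and with unequal variances. The count called at least 5-fold, 932, was 289 by the unequal-variance test, and that over the listed genes, 417, was 240 and 74 by the tests with equal and unequal variances. Leaving out each FL or ESC replicate gave 5066 to 5936 probes, and 924 to 984 at least 5-fold. None of the calls of listed and named genes changed direction under an alternative that was run. Of the 30 reported genes with the largest differences, 30 were called in the same direction under each alternative except the unequal-variance test, which called 22. Of the listed and named genes called, 313 were also called with the slide as a block and 113 were not. Probes called between FL and BM numbered 315, but 491 with all 23 arrays, 481 with the slide as a block, and 150 to 581 with one replicate left out. The cause of these shifts was not tested.

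The groups share replicate numbers 1 to 3. Deviations from the group means correlated by 0.162, -0.186 and -0.119 between same-numbered arrays (8060 probes), and by -0.201 to 0.219 between the others. The deviations of 3 arrays from their own mean depend on each other, so these values cannot decide whether the numbers pair the samples. With the replicate number as a block, 4780 probes were called, against 5750 for the same 6 arrays without it.

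For FL against ESCs, only lower bounds can be given for genes below background in one group. FL and ESC arrays shared no slide, so the slide was separated from the groups only through the other samples.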
